A study of Sus scrofa with 12 samples.

Results

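Signalling by TGF-beta, bone morphogenetic proteins (BMPs) and activins was followed in pig (Sus scrofa) embryos through 48 genes that encode its ligands, receptors, SMAD proteins and inhibitors. The genes were taken by platform symbol: numbered SMAD, BMP, GDF and TGFB genes, the BMP, TGF-beta and activin receptors, the inhibin and activin subunits, and AMH, FST, LEFTY2, NOG and PMEPA1. They were 48 of the 12628 genes named on either of 2 array designs: 26 ligands and other secreted proteins, 12 receptors, 7 SMADs and 3 inhibitors. The first array set measured 46 of them among 11913 genes and the second measured 34 among 4531. Both sets measured 32, the first alone 14, and the second alone GDF15 and INHBB. NODAL and TDGF1 also belong to the rule but matched no symbol on either design and are not analysed here. The same holds for SMAD5, which the numbered SMAD pattern would take.

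Agilent arrays with 2 colours compared early blastocysts, collected in vivo 5 days after insemination, directly with hatched blastocysts of 5.5 days, which have left the zona pellucida. Each array design was used for 6 arrays, 3 with the hatched stage in Cy5 and 3 with the early stage in Cy5, and every array carried RNA of both stages. Per the labels, the RNA went through a PicoPure kit for very small samples, 2 rounds of T7 amplification and chemical ULS labelling. The labels give no breed, litter or number of embryos per sample and do not say which arrays share an extract. The p-values therefore cover only array-to-array spread, part or all of which may be technical. The question is which transcripts the stages hold in unequal amounts.

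Ligands of this family bind pairs of type I and type II receptor kinases, and the activated type I receptor phosphorylates receptor-regulated SMADs. SMAD2 and SMAD3 carry TGF-beta, activin and nodal signals, SMAD1, SMAD5 and SMAD9 carry BMP signals, and both classes enter the nucleus with SMAD4. Inhibitory SMADs, secreted antagonists and membrane proteins such as PMEPA1 limit the response. In mammalian embryos around the time of implantation the nodal and activin branch is known for maintaining the epiblast, and BMPs for roles in the extraembryonic lineages.

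The deposited value is 1 log2 ratio of the stages per probe and array. The sources do not state the numerator, so each ratio is described as positive or negative and the stage with the higher level is not named. Within each array set the values were read as already turned to 1 direction, and results with the early-in-Cy5 arrays turned are among the alternatives. Turning exchanges the 2 terms of the fit, stage and dye. A turned ratio is therefore the dye term of the fit as reported, the part of a ratio that follows the dyes. Array medians lay between -0.0061 and 0.0105, and standard deviations between 0.301 and 0.462 on the first set and between 0.364 and 0.512 on the second. In each set the arrays were matched into 3 pairs of opposite dye orientation, by the matching with the largest summed correlation of residuals. Correlations inside pairs ran from 0.358 to 0.725 on the first set and from 0.556 to 0.746 on the second. Between other arrays they ran from -0.713 to 0.037 and from -0.686 to -0.102. This contrast is partly fixed by construction, because pairs were chosen for high values and residuals were centred within each orientation. The same pairing linked the arrays of the 2 sets over 3816 shared genes, with correlations from 0.15 to 0.39 in the 12 combinations of a pair with its counterpart and from -0.35 to 0.01 in the 24 others. The second set is therefore not treated as independent of the first. No channel intensities or detection calls were used, so a ratio near 0 does not show that a transcript was detected.

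PMEPA1, a membrane protein that TGF-beta induces and that keeps SMAD2 and SMAD3 from the receptor, had by far the largest ratio of the 48 genes. It lay on the negative side on all 12 arrays, at -1.93 ± 0.17 on the first set and -1.43 ± 0.09 on the second (log2 ratio ± SE of the fit, n = 6 arrays in each). The BMP signal carrier SMAD1 on the first set, and the receptor gene ACVR1 and the hormone gene AMH on the second, also passed the test, with ratios no larger than 0.41 in size. Nearly all other members lay close to 0.

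By limma with Benjamini-Hochberg adjustment over all genes of an array set and a threshold of 0.05, 2 of 46 members passed on the first set, which is 4.35%, where 4.75% of all its genes passed. Both, PMEPA1 and SMAD1, lay on the negative side, and no member passed on the positive side, where AMH alone had an unadjusted p under 0.05. Each side held 2.38% of all genes. Of the 34 members on the second set 3 passed, or 8.82%, beside 11.0% of all genes there. AMH lay on the positive side, which held 5.27% of all genes, and PMEPA1 and ACVR1 on the negative side, which held 5.72%. The shares of members that passed were thus close to or below those of all genes on both sets.

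The median log2 ratio of the members was 0.0098 on the first set and 0.0039 on the second, beside 0.0027 and 0.005 over all genes. The ratios of 43 of 46 and 31 of 34 members were smaller than 0.25 in size, and PMEPA1 was the only member at 2-fold or more on either set. The median size of a ratio, sign aside, was 0.0577 on the first set and 0.0667 on the second, against 0.0711 and 0.0892 over all genes. At an unadjusted p under 0.05, 4 members passed on the first set (8.7%, beside 17.1% of all genes) and 8 on the second (23.5%, beside 23.7%). Standard errors of the members ranged from 0.0517 to 0.170 and from 0.0522 to 0.124.

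All 6 arrays lay on the same side for PMEPA1 and AMH on the first set, 2 of 46 members or 4.35%, where 9.24% of all genes did so. On the second set this held for PMEPA1, ACVR1, BMPR1B, SMAD3 and NOG, 5 of 34 or 14.7%, beside 15.2% of all genes. The median over members moved little from array to array, from -0.0351 to 0.0175 on the first set and from -0.0352 to 0.101 on the second.

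**Figure D1:**
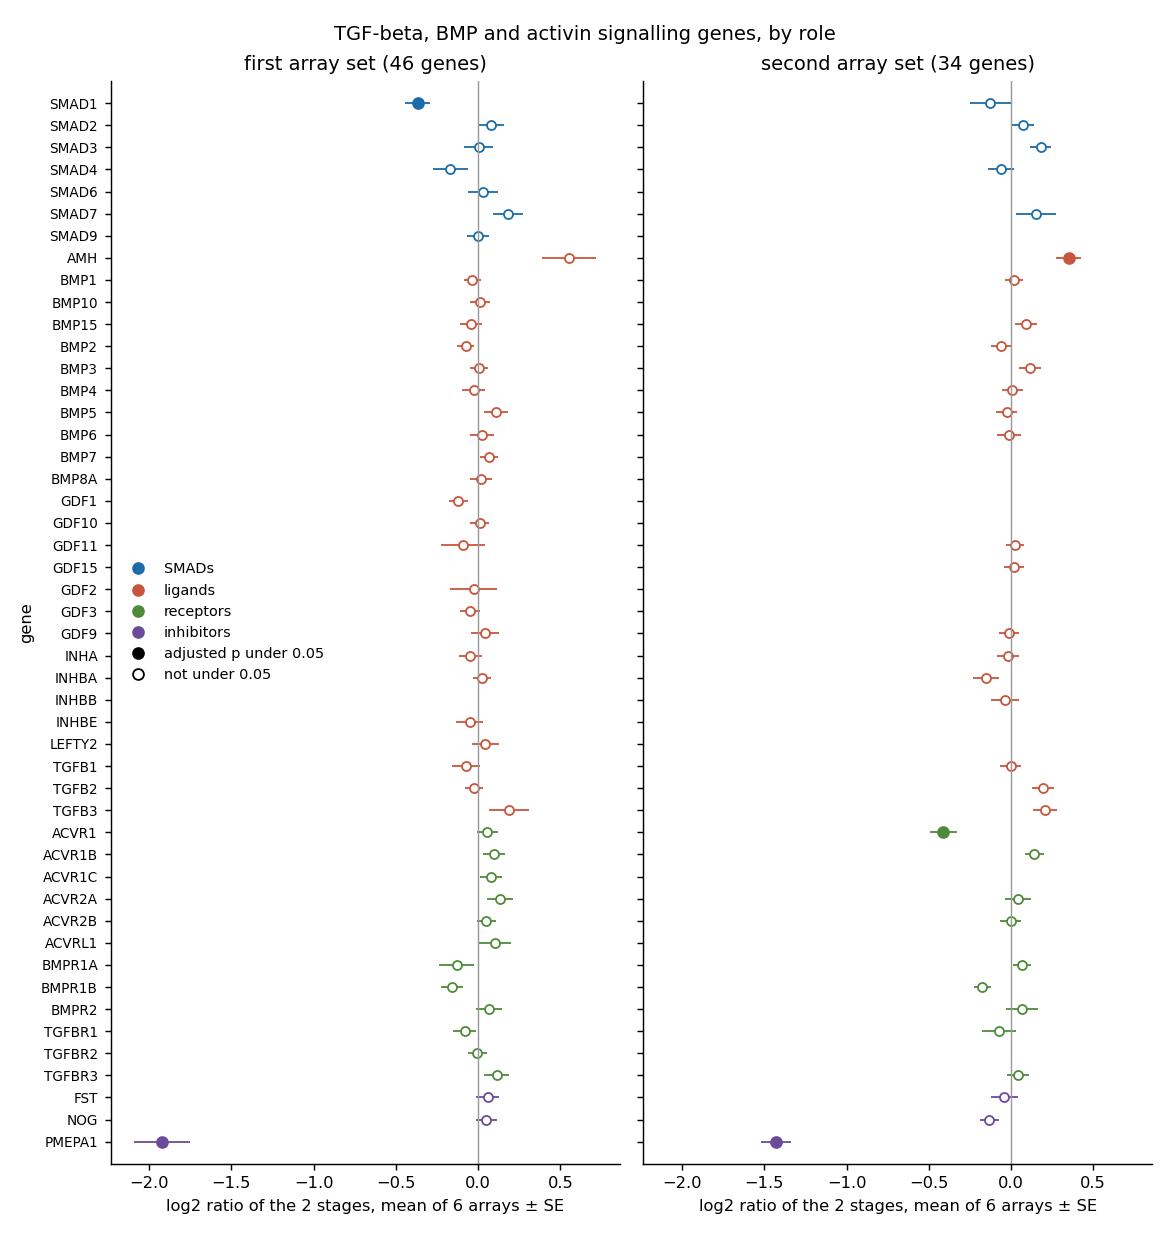
Log2 ratio of the 2 stages (horizontal axis) of each of the 48 genes (vertical axis, grouped and coloured by role) on the first array set (left, 46 genes) and the second (right, 34 genes). Points are means of 6 arrays, bars are the standard errors of the limma fit, and filled points have an adjusted p under 0.05. PMEPA1 stands alone at -1.93 and -1.43, while most other genes lie within 0.25 of 0.

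Below, the values of single arrays are given as log2 ratios, first the 3 arrays with the hatched stage in Cy5 and then the 3 with the early stage in Cy5, each in the order of replicates 1 to 3. The number only names an array. They are given for the 9 genes that passed the test, that reached 0.5 in size, or that were measured on both sets with an unadjusted p under 0.05 in either.

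Among the ligands AMH, anti-Müllerian hormone, which in the fetus causes the Müllerian ducts to regress and in the ovary is made by granulosa cells, had the largest ratio. Its values on the first set were 0.48, 0.01 and 1.19 with hatched in Cy5 and 0.15, 0.48 and 1.02 with early in Cy5. All 6 lay on the positive side, the dye orientations overlapped, and the lowest values, 0.01 and 0.15, belonged to the second residual pair, which consists of hatched replicate 2 and early replicate 1. The ratio of 0.55 ± 0.16 did not pass (limma adjusted p = 0.128).

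On the second set AMH stood at 0.24, -0.05 and 0.40 with hatched in Cy5 and at 0.42, 0.43 and 0.67 with early in Cy5. Hatched replicate 2 was the only array below 0, and every value with early in Cy5 was higher than every value with hatched in Cy5. The ratio was 0.35 ± 0.08 (limma adjusted p = 0.0293). Without the second pair it was 0.79 on the first set, where it then passed at an adjusted p of 0.0302, and 0.43 on the second.

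The 6 AMH probes gave unequal ratios. Of the 4 probes on the second set, all designed on 1 transcript, a single one passed over all probes, with a ratio of 1.16 ± 0.22 (limma adjusted p = 0.0210), positive on 6 of 6 arrays, between 0.45 and 2.29. The others lay at 0.20, 0.10 and -0.05. With the median over probes in place of the mean, AMH had a ratio of 0.20 and an adjusted p of 0.0923. The 2 probes of the first set had ratios of 0.74 and 0.37, neither past the threshold.

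The AMH call on the second set also ended when the array pairs entered as a random block (limma adjusted p = 0.0645), with slide as a block (0.0870), on the slide of 4 arrays alone (0.129), on pair averages (0.181), and without hatched replicate 1 (0.101), hatched replicate 3 (0.0954), early replicate 2 (0.0811) or early replicate 3 (0.104). Since granulosa cells make AMH, markers of cumulus and granulosa cells were set beside it. None of 8 passed on the first set, where 4.75% of all genes passed. An unadjusted p under 0.05 by limma was found for 0 of them, beside 17.1% of all genes. On the second 1 of 7 passed, or 14.3% beside 11.0% of all genes. This was STAR, which carries cholesterol into mitochondria, at 0.27 ± 0.07 (limma adjusted p = 0.0468). Its 8 probes ran from -0.05 to 1.07. The AMH receptor gene AMHR2 lay at 0.09 ± 0.06 and -0.07 ± 0.06 on the 2 sets, and the FSH receptor gene FSHR at 0.05 ± 0.07 and -0.09 ± 0.07. PTGS2 of the same list lay at -0.14 ± 0.07 and -0.46 ± 0.41, and 5 of 8 and 2 of 7 markers lay above 0. The median over these markers ranged over arrays from -0.148 to 0.143 and from -0.0979 to 0.0334. Ratios carry no level, so whether the markers were expressed could not be read, and their part in the AMH ratio was not tested.

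TGF-beta itself is encoded by TGFB1, TGFB2 and TGFB3. TGFB3 on the first set had values of 0.62, 0.09 and -0.03 with hatched in Cy5 and of -0.30, 0.24 and 0.50 with early in Cy5, so both orientations reached across 0. Its ratio there was 0.19 ± 0.12 (limma adjusted p = 0.521). On the second set the values were 0.36, 0.12 and -0.11, and then 0.33, 0.32 and 0.22.

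Only hatched replicate 3 lay below 0 for TGFB3 on the second set. The ratio was 0.21 ± 0.07 (limma adjusted p = 0.124), and its 3 probes lay at 0.51, 0.22 and -0.11, so the gene's mean joins probes of both sides. TGFB2 had values of 0.04, -0.03 and 0.09 with hatched in Cy5 and of -0.17, -0.10 and 0.02 with early in Cy5 on the first set, all near 0, with a ratio of -0.02 ± 0.05. Its values on the second set were 0.28, 0.01 and -0.01, and then 0.17, 0.36 and 0.37.

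Of those 6 TGFB2 values 5 were positive and the orientations overlapped, for a ratio of 0.20 ± 0.07 that did not pass (limma adjusted p = 0.113). TGFB1 lay at -0.08 ± 0.09 on the first set and at 0.00 ± 0.07 on the second. No TGFB gene passed on either set.

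The BMP genes stayed near 0. BMP4, which in the mouse patterns the extraembryonic ectoderm and mesoderm, had ratios of -0.03 ± 0.07 and 0.01 ± 0.06 on the first and second set, and BMP2, made by the extraembryonic endoderm of the mouse, had ratios of -0.08 ± 0.05 and -0.06 ± 0.06. BMP3, BMP5 and BMP6 lay at 0.00, 0.11 and 0.02 on the first set and at 0.12, -0.03 and -0.01 on the second. BMP1, which despite its name is a metalloprotease that processes procollagen, lay at -0.04 and 0.02. None of these passed, nor did BMP7 (0.06), BMP8A (0.02) or BMP10 (0.01), read on the first set only. A further probe of the second set carries the symbol Bmp7 in another spelling, which the rule did not take. Its ratio was 0.13 ± 0.07, positive on 6 of 6 arrays, with a limma adjusted p of 0.389 over all probes.

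BMP15 and GDF9, growth factors that the oocyte makes, lay at -0.04 ± 0.06 and 0.04 ± 0.09 on the first set and at 0.09 ± 0.07 and -0.01 ± 0.06 on the second, with no call. Of 8 sperm and oocyte markers 2, or 25.0%, passed on the negative side on each set, beside 2.38% and 5.72% of all genes. They were the zona pellucida gene ZP4 (-0.36 ± 0.06, limma adjusted p = 0.0186) and the kinase gene MOS on the first. On the second they were ZP4 (-1.23 ± 0.09, limma adjusted p = 0.000868) and ZP2. The oocyte's own ligands thus did not pass where some other oocyte genes did, and the listed oocyte genes ZP3 and NLRP5 passed on neither set. The difference between these genes was not tested.

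Among the remaining growth and differentiation factors, GDF1 had the lowest ratio, -0.12 ± 0.06 on the first set (limma adjusted p = 0.349). GDF3, a nodal-like ligand of pluripotent cells, lay at -0.05 ± 0.06, GDF10 at 0.01, GDF2, a circulating ligand that acts on endothelium, at -0.03 ± 0.14, and LEFTY2, an extracellular antagonist of nodal, at 0.04 ± 0.08, each on the first set only. GDF11 was read on both sets, at -0.09 ± 0.13 and 0.02 ± 0.06. GDF15, a stress-induced factor read on the second set only, lay at 0.02 ± 0.06. No GDF gene passed the test.

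Activins are dimers of INHBA and INHBB chains, and inhibins join such a chain with INHA. INHBA lay at 0.02 ± 0.06 on the first set and at -0.15 ± 0.08 on the second (limma adjusted p = 0.293), where its 2 probes disagreed. One was negative on 6 of 6 arrays, between -0.53 and -0.16, with a ratio of -0.36 ± 0.08 (limma adjusted p = 0.0357 over all probes), and the other at 0.06 ± 0.11. INHBB lay at -0.03 ± 0.09, INHA at -0.05 ± 0.07 and -0.02 ± 0.07, and INHBE, a chain known from liver, at -0.05 ± 0.08.

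Taken as a group, 12 of 24 ligands lay above 0 on the first set and 9 of 17 on the second, and AMH on the second set was the only call. Apart from AMH, TGFB2 and TGFB3, the ratios ran from -0.12 (GDF1) to 0.11 (BMP5) on the first set and from -0.15 (INHBA) to 0.12 (BMP3) on the second.

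Of the receptors, ACVR1, a type I receptor for BMPs, was the only one past the threshold. Its values on the second set were -0.61, -0.33 and -0.28 with hatched in Cy5 and -0.27, -0.69 and -0.30 with early in Cy5. All 6 lay on the negative side, the orientations overlapped, and hatched replicate 1 and early replicate 2, which form the first residual pair, lay lowest. The ratio was -0.41 ± 0.08, or 1.33-fold (limma adjusted p = 0.0198).

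On the first set the single ACVR1 probe read 0.12, 0.02 and -0.10, and then 0.00, -0.02 and 0.30. These values lay on both sides of 0, with a ratio of 0.06 ± 0.07 (limma adjusted p = 0.744), so the call of the second set was not seen there. The 4 probes of the second set come from 2 predicted transcripts. The probes of one lay at -0.97 ± 0.16, negative on 6 of 6 arrays (limma adjusted p = 0.0106 over all probes), and at -0.61 ± 0.17 (adjusted p = 0.0914), and the probes of the other at -0.04 ± 0.10 and -0.03 ± 0.10. The gene's mean therefore joins 2 transcripts with unequal ratios, and the files do not say how the transcripts differ.

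The ACVR1 call ended with slide as a block (limma adjusted p = 0.0604), on the slide of 4 arrays alone (0.0843), on pair averages (0.160), and without hatched replicate 1 (0.0719), hatched replicate 3 (0.0506), early replicate 2 (0.0634) or early replicate 3 (0.0519). It held when the pairs entered as a random block, at 0.0352.

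BMPR1B, another type I receptor for BMPs, lay slightly to the negative side on both sets. The first set gave -0.35, -0.17 and 0.08 with hatched in Cy5 and -0.19, -0.17 and -0.15 with early in Cy5, with hatched replicate 3 alone above 0. The ratio was -0.16 ± 0.07 (limma adjusted p = 0.283). The second set gave -0.26, -0.29 and -0.21, and then -0.08, -0.13 and -0.08.

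All 6 BMPR1B values of the second set were negative and the orientations did not overlap, and the ratio of -0.18 ± 0.05 did not pass (limma adjusted p = 0.0796). One probe on each set passed over all probes. On the first set it lay at -0.55 ± 0.10, negative on 6 of 6 arrays (limma adjusted p = 0.0199), beside probes at -0.05 and 0.13. On the second it lay at -0.60 ± 0.11, negative on 5 of 6 (limma adjusted p = 0.0171), beside probes at -0.19, 0.00 and 0.08. Both called probes were designed on the same transcript, as were some of their uncalled neighbours.

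ACVR1B, a type I receptor for activin and nodal, had first-set values of -0.08, -0.12 and 0.00 with hatched in Cy5 and of 0.39, 0.02 and 0.36 with early in Cy5. Values of the former orientation lay at or below 0 and those of the latter above it, for a ratio of 0.10 ± 0.07 (limma adjusted p = 0.542). The second set read 0.18, 0.20 and 0.33, and then -0.06, 0.08 and 0.13, so there the orientations were ordered the other way. The ratio was 0.14 ± 0.06 (limma adjusted p = 0.189).

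None of the other 9 receptors of the first set passed (smallest limma adjusted p = 0.461), nor did the other 6 of the second (0.569). TGFBR1 and TGFBR2, the type I and type II receptors for TGF-beta, lay at -0.08 ± 0.07 and 0.00 ± 0.06 on the first set, and TGFBR1 at -0.07 ± 0.10 on the second. TGFBR3, betaglycan, a co-receptor without kinase activity, lay at 0.11 ± 0.07 and 0.04 ± 0.07. The type II receptors for activin and BMPs gave 0.13 ± 0.08 and 0.04 ± 0.08 for ACVR2A, 0.05 ± 0.06 and 0.00 ± 0.06 for ACVR2B, and 0.07 ± 0.08 and 0.07 ± 0.10 for BMPR2. BMPR1A, the third type I receptor for BMPs measured on both sets, lay at -0.13 ± 0.11 and 0.07 ± 0.06. ACVR1C, a receptor for nodal, and ACVRL1, known from endothelium, lay at 0.08 ± 0.07 and 0.10 ± 0.10 on the first set.

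Among the SMADs, SMAD1 on the first set read -0.39, -0.74 and -0.74 with hatched in Cy5 and 0.09, -0.29 and -0.12 with early in Cy5. Of the 6 arrays 5 were negative, and every value with hatched in Cy5 was lower than every value with early in Cy5. The ratio was -0.37 ± 0.08, or 1.29-fold (limma adjusted p = 0.0410), beside a dye term of -0.26 with an unadjusted p of 0.0108 and an adjusted p of 0.118.

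This call was near the threshold. It ended without the dye term (limma adjusted p = 0.150), with pairs entered as a random block (0.139), on pair averages (0.163), with slide as a block (0.0638), without the second pair (0.0504), and when any single array other than early replicate 1 was left out (0.0524 to 0.153). On the slide of 4 arrays alone the ratio was -0.48 and the adjusted p 0.0421.

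The second set gave SMAD1 values of -0.30, 0.14 and -0.59 with hatched in Cy5 and of 0.43, -0.19 and -0.25 with early in Cy5. The 2 positive values, 0.14 and 0.43, are those of the second pair, and the ratio was -0.12 ± 0.12 (limma adjusted p = 0.635). Without that pair, the only one left out in this way, it was -0.33, with an adjusted p of 0.0490.

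SMAD3, which carries TGF-beta and activin signals, had values of -0.12, 0.03 and 0.46 with hatched in Cy5 and of 0.03, -0.32 and -0.06 with early in Cy5 on the first set, spread on both sides of 0, with a ratio of 0.00 ± 0.09. The second set read 0.27, 0.43 and 0.12, and then 0.10, 0.15 and 0.02. All 6 were positive, and the ratio of 0.18 ± 0.06 did not pass (limma adjusted p = 0.122). Its 2 probes there lay at 0.33 and 0.03, although both come from 1 transcript.

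SMAD2, the partner of SMAD3, lay at 0.08 ± 0.08 and 0.07 ± 0.07. SMAD4, the common partner of both branches, lay at -0.17 ± 0.11 on the first set and at -0.06 ± 0.08 on the second, where its 5 probes on 1 transcript ranged from -0.42 to 0.25 and none passed. Of the inhibitory SMADs, SMAD7 lay at 0.18 ± 0.09 and 0.15 ± 0.12, and SMAD6, read on the first set, at 0.03 ± 0.09. SMAD9 lay at 0.00 ± 0.07. The smallest limma adjusted p among SMADs other than SMAD1 and SMAD3 was 0.372 on the first set and 0.547 on the second.

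**Figure D2:**
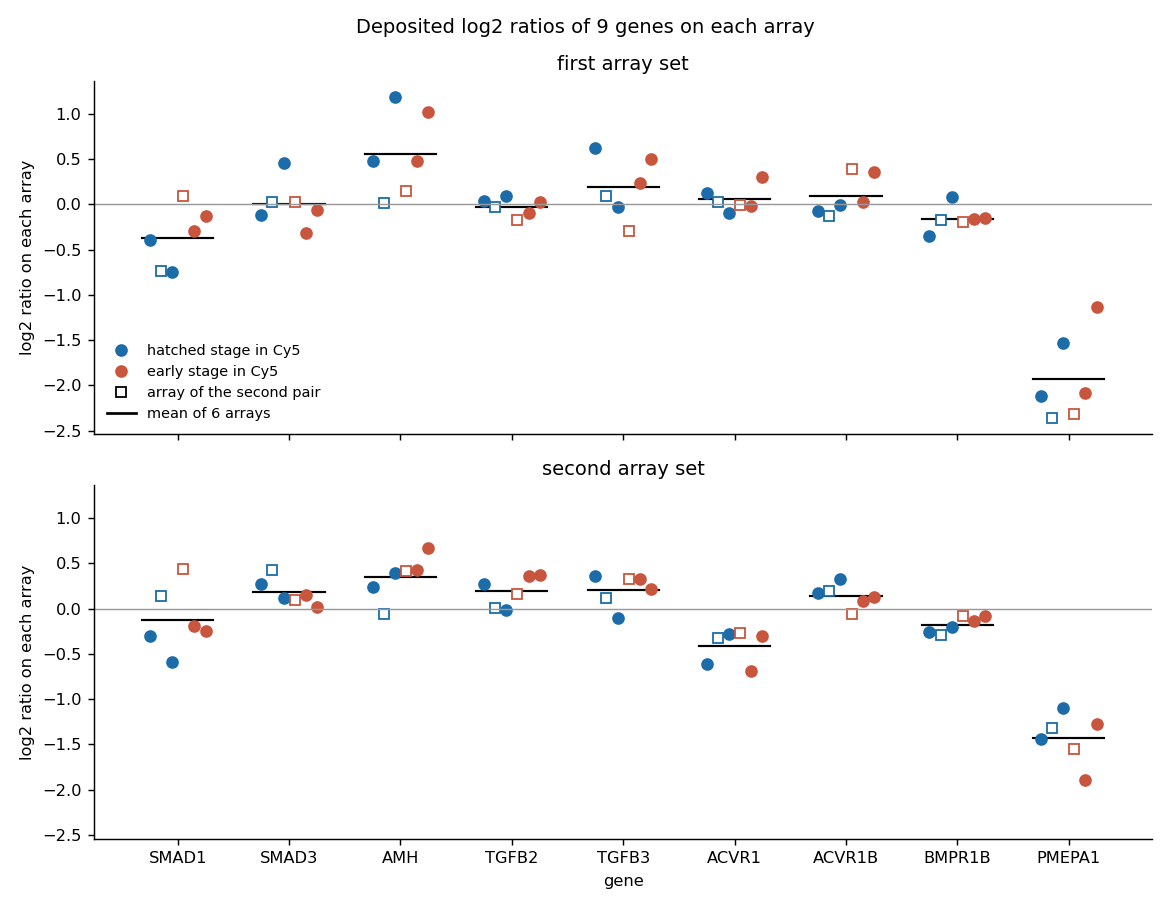
Deposited log2 ratio on each array (vertical axis) of the 9 genes described array by array (horizontal axis), on the first set (top) and the second (bottom). Blue marks are arrays with the hatched stage in Cy5, red marks those with the early stage in Cy5, open squares the arrays of the second residual pair, and bars the mean of 6 arrays. PMEPA1 lies between -2.37 and -1.09 on all 12 arrays, while the arrays of SMAD1 and AMH spread to 0 or across it.

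The inhibitors were PMEPA1, FST (follistatin, which binds activin) and NOG (noggin, which binds BMPs). PMEPA1 read -2.12, -2.37 and -1.53 with hatched in Cy5 and -2.32, -2.09 and -1.14 with early in Cy5 on the first set. All 6 arrays lay below -1.1, both orientations covered nearly the same range, and replicate 3 of either orientation, which form the third residual pair, lay nearest to 0. The ratio was -1.93 ± 0.17, or 3.80-fold, with a limma adjusted p of 0.00236.

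For PMEPA1 on the second set the values were -1.44, -1.32 and -1.09, and then -1.56, -1.89 and -1.27. The third pair again lay nearest to 0 and the orientations overlapped. The ratio was -1.43 ± 0.09, or 2.69-fold (limma adjusted p = 0.000423). Both probes of the second set, designed on 1 transcript, passed over all probes, at -1.78 ± 0.16 and -1.08 ± 0.10, and the single probe of the first set lay at -1.93.

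The PMEPA1 call held without any single array (limma adjusted p at most 0.0155 on the first set and 0.00422 on the second), with slide as a block (0.0130 and 0.00474) and on the slide of 4 arrays alone (ratios of -1.78 and -1.40, adjusted p of 0.0312 and 0.0132). On the averages of the 3 pairs the ratios were the same and the adjusted p values 0.0946 and 0.0513, a setting in which 0 of 11913 and 4 of 4531 genes passed. With the early-in-Cy5 arrays turned, the ratios were -0.08 and 0.14, which are the dye terms of the fit as reported.

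FST lay at 0.06 ± 0.07 on the first set and at -0.04 ± 0.08 on the second, where its 2 probes lay on opposite sides of 0. NOG lay at 0.05 ± 0.06 on the first set. On the second all 6 NOG values were negative, between -0.34 and 0.00, for a ratio of -0.13 ± 0.06 that did not pass (limma adjusted p = 0.217). PMEPA1 was thus the only inhibitor called on either set.

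Several probes measured 8 members on the first set, with 18 probes, and 17 on the second, with 47. The probes of 3 and 10 of these genes lay on opposite sides of 0, and the highest and lowest probe ratios of a gene differed by over 0.5 in 1 and 6 of them. Over all member probes, 3 of 56 passed on the first set (5.36%, beside 4.64% of all probes) and 6 of 64 on the second (9.38%, beside 6.12%). The backgrounds are unlike the members, since 25673 of 43794 and 34930 of 45220 probes carry no gene symbol. By gene, among named genes, the members' share on the second set was 8.82% beside 11.0%. They belonged to PMEPA1, SMAD1 and BMPR1B on the first set and to PMEPA1, ACVR1, AMH, BMPR1B and INHBA on the second. For 4 of the 5 genes on the second set, all but PMEPA1, a single probe carried the call.

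**Figure D3:**
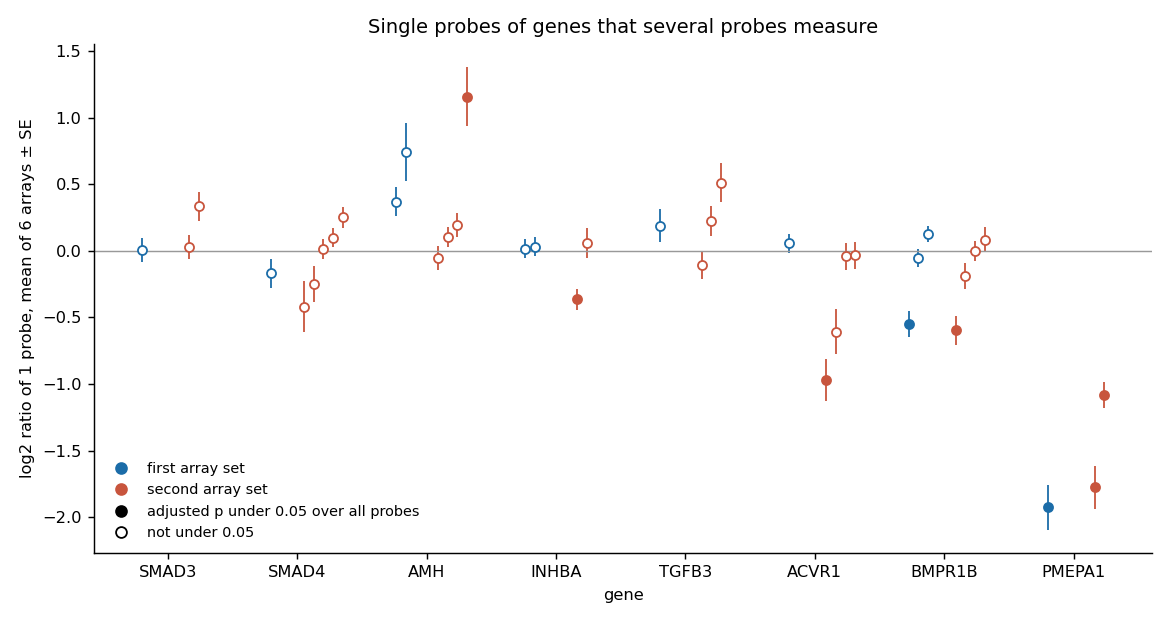
Log2 ratio of single probes (vertical axis, mean of 6 arrays with the standard error of the limma fit) for 8 genes (horizontal axis), with the first array set in blue and the second in red. Filled points have an adjusted p under 0.05 over all probes of their set. The PMEPA1 probes all lie between -1.93 and -1.08, whereas 1 AMH probe at 1.16 stands away from the other AMH probes and the ACVR1 probes of the second set lie at -0.97 and -0.61 for one transcript and at -0.04 and -0.03 for the other.

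The dye term of the fit, which holds the part of a ratio that follows the dyes, passed for 0 of 46 members on the first set by limma, with 9 at an unadjusted p under 0.05, while 0.991% of all genes passed and 2537 of 11913 had such a p. It passed for 0 of 34 members and 0% of genes on the second set, with 3 members and 648 genes at an unadjusted p under 0.05. The members with the largest dye terms on the first set were GDF2 (-0.39), SMAD4 (-0.30), SMAD6 (-0.27), SMAD1 (-0.26) and BMP8A (-0.26), and on the second INHA (-0.29). For SMAD6 the 3 values with hatched in Cy5 were -0.41, -0.04 and -0.25 and the 3 with early in Cy5 were 0.66, 0.07 and 0.18, so its mean near 0 joins 2 orientations that do not overlap.

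Outside these 48 genes, 93 further gene symbols of the pathway were looked up in the same fits, a few of them alternative names of the same gene. They were extracellular partners such as latent TGF-beta binding proteins, intracellular regulators, and target genes. Of 63 measured on the first set 3 passed, 1 positive and 2 negative, and of 32 on the second 3 passed, again 1 and 2. These shares, 4.76% and 9.38%, lay beside 4.75% and 11.0% of all genes, so calls were about as frequent in these lists as elsewhere. Their medians were 0.0014 and -0.0367. By list, 1 of 21 extracellular partners, 1 of 21 intracellular regulators and 1 of 23 targets passed on the first set. On the second 0 of 7 (1 at an unadjusted p under 0.05 by limma), 2 of 9 and 1 of 16 passed. The 2 of 9 intracellular regulators were 22.2%, both negative, with a list median of -0.249. Of these 9, 5 had an unadjusted p under 0.05 by limma. Such a p was found for 23.7% of all genes on that set.

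On the first set DCN, decorin, a matrix proteoglycan that binds TGF-beta, had values of -1.71, -0.87 and -0.08 with hatched in Cy5 and of -1.33, -1.24 and -0.50 with early in Cy5, and a ratio of -0.95 ± 0.21 (limma adjusted p = 0.0475). All 6 values were negative, over a wide range. DCN lay at -0.31 ± 0.08 on the second set without passing (adjusted p = 0.0568), over 5 probes from -0.81 to 0.02. CYR61, a matricellular protein gene that TGF-beta and other signals induce, read -1.50, -0.66 and -0.44, and then -1.31, -2.03 and -0.43.

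CYR61 was negative on all 6 arrays of the first set, with a ratio of -1.06 ± 0.22 (limma adjusted p = 0.0389), but lay at 0.03 ± 0.11 on the second, where its 4 probes ran from -0.29 to 0.34. CREBBP, a histone acetyltransferase that SMADs recruit, passed on the positive side on the first set at 0.49 ± 0.09 (limma adjusted p = 0.0330), with 1 probe at 1.03 and the other at -0.06. With pairs entered as a random block the DCN call ended (limma adjusted p = 0.0633) and those of CYR61 (0.0403) and CREBBP (0.0400) held, and none of the 3 genes passed on the slide of 4 arrays alone or on pair averages. The number of calls on the first set fell from 3 to 0 without hatched replicate 1 or early replicate 2, to 1 without hatched replicate 3, early replicate 1 or early replicate 3, and to 2 without hatched replicate 2.

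On the second set the fibronectin gene FN1, a matrix gene that TGF-beta induces in many cells, read 3.33, 1.65 and 2.89 with hatched in Cy5 and 1.69, 3.21 and 2.89 with early in Cy5, all positive, with the second pair lowest. Its ratio was 2.61 ± 0.26 (limma adjusted p = 0.00215), and both probes lay at 2.61. On the first set FN1 lay at 0.25 ± 0.06 (adjusted p = 0.0675), where its 5 probes ran from -0.20 to 1.36. DAB2, an endocytic adaptor that binds TGF-beta receptors and SMADs, lay at -1.12 ± 0.16 on the second set (limma adjusted p = 0.00612), by 1 probe. On the first it lay at -0.14 ± 0.08, where its 4 probes ran from -0.63 to 0.28. DAB2 is also on the list of trophectoderm markers used below.

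TAB1, which activates the kinase TAK1 downstream of TGF-beta receptors, lay at -0.32 ± 0.08 on the second set (limma adjusted p = 0.0464) and at 0.18 ± 0.11 on the first. Its call ended with pairs entered as a random block (0.0892) and whichever single array was left out (0.0640 to 0.147), while FN1 and DAB2 lost theirs on pair averages (0.0637 and 0.0943) and with the early-in-Cy5 arrays turned, and in no other setting run by gene. Genes that BMPs are known to induce lay on both sides of 0 and did not pass. ID1 lay at -0.01 ± 0.06 and 0.33 ± 0.19 on the 2 sets, ID2 at 0.14 ± 0.08 and 0.15 ± 0.10, and ID4 at 0.06 ± 0.09 and, negative on 6 of 6 arrays, at -0.46 ± 0.12 (limma adjusted p = 0.0509 on the second set). MSX1 lay at 0.19 ± 0.05 on the first set, positive on 6 of 6 arrays (limma adjusted p = 0.0918), and at -0.07 ± 0.07 on the second, and MSX2 at -0.25 ± 0.07 on the first, negative on 6 of 6 (adjusted p = 0.108). For ID1 on the second set the values above 0.3 were 1.15 and 0.88, those of the second pair, and the other 4 lay between -0.21 and 0.20. CTGF, another gene that TGF-beta induces, lay at -0.07 ± 0.06 and 0.04 ± 0.06. Other listed targets lay further from 0 without passing. KLF10 lay at -0.33 ± 0.10 and -0.17 ± 0.07 (limma adjusted p = 0.122 and 0.172). MYC lay at -0.48 ± 0.16 and -0.33 ± 0.14 (adjusted p = 0.181 and 0.194). Of all listed targets, 11 of 23 lay above 0 on the first set and 6 of 16 on the second. The number of partner and target calls on the second set, 3, became 5 without hatched replicate 2, 6 without the second pair, and 2 without hatched replicate 1 or 3 or early replicate 2 or 3.

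In these whole embryos a ratio cannot tell a changed number of cells of a type from changed RNA per cell. Some lineage markers passed, in unequal shares and on both sides of 0, where 4.75% and 11.0% of all genes passed on the 2 sets, and no list was tested as a whole. Of the hypoblast markers 5 of 8 passed on the first set (62.5%), all positive, and 3 positive and 1 negative of 6 on the second (66.7%). The positive calls were APOA1, APOE and FLRT3 on both sets, and LAMB1 and COL4A1 on the first. The negative call was GATA6 (-0.72 ± 0.15, limma adjusted p = 0.027), at -0.06 ± 0.13 on the first set. HNF4A (-0.03 and 0.03), PDGFRA (0.15, first set) and GATA4 (0.07, second set) did not pass. The marker lists were chosen with earlier results of these data known. Of the trophectoderm markers 4 of 10 (40.0%) passed on the first set, all positive, and 3 positive and 2 negative of 7 (71.4%) on the second. One of these negative calls was DAB2, already counted among the pathway partners. Of the inner cell mass and epiblast markers 1 of 8 (12.5%) passed on the first set, negative, and 2 positive and 1 negative of 7 (42.9%) on the second.

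Markers of the oviduct and uterus and of blood and immune cells gave at most 1 call per list and set. None of 9 oviduct and uterus markers passed on the first set, where 4.75% of all genes passed. Of these 9, 2 had an unadjusted p under 0.05 by limma, beside 17.1% of all genes. On the second set 1 of 7 passed, or 14.3% beside 11.0% of all genes. This was the uterine protease inhibitor gene UPTI at 2.97 ± 0.40 (limma adjusted p = 0.00496). On the first set UPTI lay on the same side, at 0.60 ± 0.16, without passing (limma adjusted p = 0.101). Of the blood and immune markers 0 of 7 passed on either set, with 0 at an unadjusted p under 0.05 by limma. Of all genes 17.1% and 23.7% had such a p on the 2 sets. The part of any of these cells in the members' ratios was not tested.

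**Figure D4:**
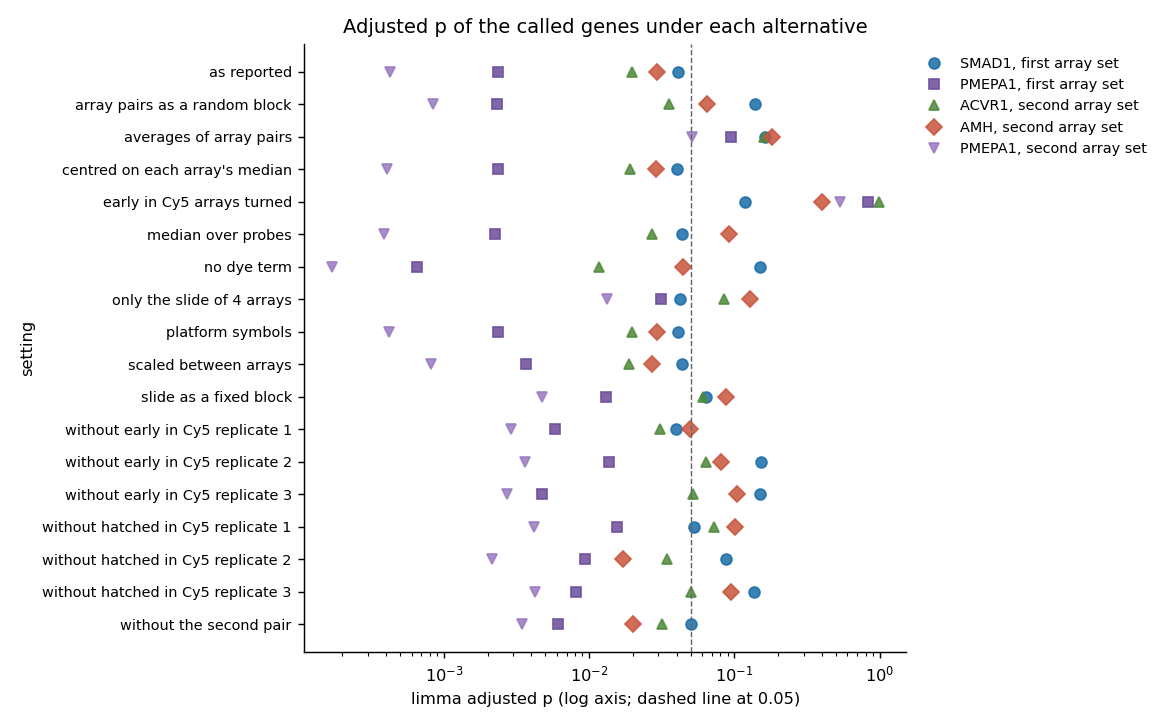
Limma adjusted p (horizontal log axis, dashed line at 0.05) of the called genes, SMAD1 and PMEPA1 on the first array set and ACVR1, AMH and PMEPA1 on the second, as reported and under 17 alternatives (vertical axis). PMEPA1 stays left of the line except on pair averages (0.0946 and 0.0513) and with the early-in-Cy5 arrays turned (0.826 and 0.534), while SMAD1, ACVR1 and AMH cross it under several settings. The turned setting restates the dye term of the fit as reported.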

How the data were processed

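The authors deposited 1 log ratio per probe and array, taken as log2 because single values reach -12.7 and 12.2, too wide for log10. The sources used here do not give scanner, background correction, normalization or direction. Values were used as deposited. They were read as turned to 1 direction, since 99.0 to 99.4% of values on hatched-in-Cy5 arrays and 0.0% on the others have over 6 significant digits. The digits show that the orientations were handled unequally, not which direction they hold. Deposited values correlated inside the residual pairs from 0.281 to 0.686 on the first set and from 0.504 to 0.755 on the second. Between other arrays of opposite orientation the correlation went down to -0.071 and 0.104. The reading was not tested further.

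Probes were named from the platform annotation, updated through RefSeq (Sscrofa11.1, names only): 18121 of 43794 and 10290 of 45220 probes had 1 symbol. Probes of 1 symbol were averaged. The array sets were fitted separately in limma 3.58.1 under R 4.3.3 (stage and dye term, 2-sided, Benjamini-Hochberg), after a test on simulated data. The number of arrays limits the precision. Members, lists and array pairs were chosen with earlier results of these data known. Beyond members, genes with adjusted p under 0.05 were named. Comparison genes without a call (such as AMHR2, FSHR, PTGS2, CTGF, KLF10, MYC and the ID and MSX genes) were chosen after their values were seen. Sequences and promoter motifs are not used here.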

Additional observations from a re-analysis of the deposited data

How the results depend on the processing

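Over 17 alternatives the ratios of the 9 genes gave 306 values, of which 258 kept direction and side of the threshold, 30 lost the call, 2 gained one (AMH on the first set and SMAD1 on the second, both without the second pair) and 16 changed sign. Most of these ratios were not called at first and count as kept while they stay uncalled. Of the called ones, PMEPA1 kept its call and sign in 15 of 17 alternatives on either set. SMAD1 did so in 6 of 17 on the first set, and ACVR1 in 9 and AMH in 7 of 17 on the second. Of 2 members called on the first set, 1 remained with pairs as a random block, without the dye term or with slide as a block, and 0 on pair averages or with early-in-Cy5 arrays turned. Of 3 on the second, 0 remained on pair averages or turned, 1 on the slide of 4 arrays or with slide as a block, and 5 genes had a called probe. Leaving out 1 array gave 1 to 2 and 1 to 3. Partners and targets called, 3 on each set, became 2 and 2 with pairs as a random block (DCN and TAB1 lost), 0 and 0 on pair averages, 1 and 0 turned, 7 and 7 by probe, 6 and 6 without the second pair, 6 and 7 at a threshold of 0.1, 0 on the slide of 4 arrays and 1 with slide as a block on the first set, and 6 without the dye term on the second. Leaving out 1 array gave 0 to 2 and 2 to 5. Over all genes the 566 and 498 calls became 0 and 4 on pair averages, 118 and 0 turned, and 243 and 210 on the slide of 4 arrays. They became 249 and 290 with slide as a block, 1166 and 785 without the second pair, and 873 and 743 at a threshold of 0.1. Without single arrays they ran from 197 to 610 and from 255 to 578. By probe, 2032 of 43794 and 2766 of 45220 probes passed. Turning the early-in-Cy5 arrays moved the second set's member median to -0.0654 and changed the sign of ACVR1 (-0.0392), ACVR1B (-0.163), BMPR1B (0.0116) and TGFB2 (0.0577) on the first set and of ACVR1 (0.0056), AMH (-0.157), PMEPA1 (0.143), TGFB2 (-0.103) and TGFB3 (-0.0814) on the second. On the first set SMAD3, near 0, went to -0.0051 when scaled, -0.0087 with slide as a block and -0.0097 without the second pair, and ranged from -0.0805 to 0.064 without single arrays, and TGFB2 went to 0.014 without the second pair. Turning rests on reading the deposited values as Cy5 over Cy3, and pair averages leave 3 samples; the causes of the other changes were not tested. No paired analysis by label was possible because the labels number no replicates. Promoter motifs were not run. Signal over background is unknown.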
